A study of Mustela putorius furo and Mus musculus with 4 samples.

Results

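Immediate early genes are switched on within minutes of a signal, without new protein synthesis. In all, 10 of them are described here cell class by cell class in embryonic cortex. Fos and Fosb encode Fos-family proteins and Jun, Junb and Jund encode Jun-family proteins, and a Fos or Jun partner pairs with a Jun partner to form the AP-1 transcription factor. Egr1 is a zinc-finger transcription factor induced through serum response factor and ERK signaling, and Ier2 is a nuclear protein of the same early response. Atf3 is a stress-induced bZIP factor, Dusp1 is a phosphatase that switches off MAP kinases, and Nr4a1 is an orphan nuclear receptor. Such genes respond to growth factors in dividing progenitors and to synaptic activity in neurons. They are also known to be induced while tissue is being dissociated, and all libraries here were dissociated with papain. The part of dissociation in the values below was not tested.

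The members were the 10 listed symbols, and all 10 were found among the 17170 genes of the mouse table and among the 22008 genes of the ferret table. They were found by symbol alone. The mouse data came from embryonic day 18 cortex of CD1 mice. The control was a wild type littermate by its label and Smo F/F by the study's methods, and the Smo cKO carried hGFAP-Cre and Smo F/F, so that the Sonic hedgehog transducer Smo was deleted by a Cre under a human GFAP promoter, which is active in cortical radial glial (RG) cells, so that their progeny carry the deletion. A dye was injected into the lateral ventricle at embryonic day 17 and dye-labeled cells were sorted, so these cells are not a census of the cortex. The ferret data came from wild type embryonic day 39 cortex that was not sorted, from both hemispheres of 1 embryo. Each mouse genotype was 1 library, with 10498 control and 7209 Smo cKO cells kept, and the ferret table held 2 sets of barcodes, with 10185 and 13052 cells kept, which could not be tied to the 2 ferret samples. Genotype was assigned by matching the number of barcodes of each suffix to the cell numbers stated by the study. If that match were wrong, every direction between genotypes below would be the opposite. With 1 library a genotype there was no test between genotypes, and all intervals cover 95% counting error only, not the spread between animals.

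The libraries held 51657121 (control) and 42057782 (Smo cKO) unique molecular identifiers (UMIs, each standing for 1 captured RNA molecule) in kept cells, at a median of 4034 and 4836 a cell. The ferret sets held 30548876 and 56090792 UMIs, at a median of 2556 and 3563. The 2 mouse libraries shared 28 barcode sequences and the 2 ferret sets 38. Smo itself gave 281 UMIs in control RG-like cells and 7 in Smo cKO RG-like cells, 13.4 against 0.396 UMIs per 1000000 UMIs of the class (CPM). The library matched to Smo cKO by cell number was thus the one low in Smo RNA.

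Each cell was given the class whose 8 markers it showed most of, with at least 3 markers and no tie, and classes are called "-like" because they rest on these markers alone. In control and Smo cKO, 3503 and 2210 cells were RG-like, 3182 and 1697 were like intermediate progenitors of pyramidal neurons (PyN-IPCs), and 1795 and 1743 were like pyramidal neurons (PyNs). The inhibitory lineage-like class held 82 and 211 cells and the microglia-like class 92 and 170. These 5 classes had at least 50 cells in each mouse library and were compared. RG-like cells showed a median of 7 of their 8 markers in both libraries, PyN-IPC-like and PyN-like cells a median of 4. Those neighboring classes run into one another. Of the PyN-IPC-like cells, 725 of the control and 274 of the Smo cKO had exactly 3 markers and 1225 and 768 led by a single marker, and the median PyN-IPC-like cell showed 2 markers of its next best class in control and 3 in Smo cKO. In control, 31.4% of RG-like, 38.5% of PyN-IPC-like and 31.8% of PyN-like cells held 3 or more markers of another class, and in Smo cKO 26.0%, 52.9% and 36.6% did. No doublet caller was run. Control RG-like cells were shallower than Smo cKO RG-like cells, with median UMI counts of 5174 and 7387.

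Among the 5 compared classes, Fos was highest in microglia-like and RG-like cells. In control it stood at 308 CPM in microglia-like, 235 in RG-like, 60.3 in PyN-IPC-like, 29.7 in inhibitory lineage-like and 18.9 in PyN-like cells. The first 3 classes lay apart from one another beyond their counting intervals, and the last pair did not. The microglia-like lead over RG-like cells was not seen in cluster 19 of the class, described below. Cells of that cluster held 220 CPM of Fos in control and 171 in Smo cKO, against 235 and 201 in RG-like cells. Control cells of cluster 20 held 726 CPM. RG-like cells held 12.4 times the PyN-like level (interval 10.4 to 14.9) in control and 9.17 times (7.87 to 10.8) in Smo cKO. Endothelial or mural-like cells, too few in mouse to be compared, were near the RG-like level, with 234 CPM in control (44 cells) and 1.12 times the RG-like level (0.927 to 1.34) in ferret set 1. Ferret cells showed the same side of the contrast between RG-like and PyN-like cells, with RG-like levels of 249 and 359 CPM in the 2 sets against 35.6 and 51.7 in PyN-like cells. Ferret PyN-IPC-like cells stood below PyN-like cells in set 2 (20.97 against 51.66 CPM), whereas mouse PyN-IPC-like cells stood above PyN-like cells in both libraries. Fosb followed the Fos pattern at few UMIs, with 41.8 CPM in control microglia-like cells, 11.8 in RG-like cells and 2.36 and 1.61 in PyN-IPC-like and PyN-like cells.

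Jun, the main partner of Fos, was most concentrated in mouse RG-like cells. It reached 393 CPM in control RG-like cells, against 181 in microglia-like, 69.3 in inhibitory lineage-like, 37.7 in PyN-IPC-like and 34.0 in PyN-like cells. A Jun UMI was found in 75.02% of control and 74.98% of Smo cKO RG-like cells, and in 9.25% of control PyN-like cells (median 3267 UMIs). In Smo cKO the order began the same way, with 331 CPM in RG-like and 273 CPM in microglia-like cells. In ferret the top place went to microglia-like cells, at 615 and 887 CPM, and RG-like cells held 114 and 229 CPM, 6.31 and 6.76 times the PyN-like level. The ferret set 2 microglia-like class held only 48 cells.

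The markers of RG-like cells served as a gauge of free RNA behind the low neuronal levels of Fos and Jun. PyN-like cells of the control carried 576 CPM of the 8 RG markers. If all of that had been RG RNA that leaked into these droplets, it would have brought 7.64 CPM of Fos and 12.8 CPM of Jun with it, against measured levels of 18.9 and 34.0 CPM. The same reckoning gave 4.36 of 99.2 CPM for Egr1 and 2.86 of 95.2 CPM for Ier2. For rare members the reckoned amount came close to the level. It was 0.133 of 0.147 CPM for Atf3 in control PyN-like cells, and in Smo cKO PyN-IPC-like cells 0.207 of 0.233 CPM for Atf3 and 0.341 of 0.466 CPM for Nr4a1.

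Jund, the Jun-family member that is present without stimulation in most cells, differed least between classes in control. In mouse it was higher in PyN-like cells than in RG-like and PyN-IPC-like cells, but not in inhibitory lineage-like cells. In control it stood at 487 CPM in PyN-like cells, 382 in RG-like, 381 in PyN-IPC-like, 290 in inhibitory lineage-like and 251 in microglia-like cells, so that its highest class exceeded its lowest by 1.94 times. Ferret showed the opposite slope between progenitors and neurons: 542 and 643 CPM in RG-like cells, against 222 and 251 CPM in PyN-like cells. The RG-like level was 0.785 times the PyN-like level in the mouse control and 2.44 and 2.57 times it in the ferret sets. Species, age and sorting all differ between these tables and cannot be told apart.

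Among the 5 compared classes of the mouse, Junb and Atf3 were highest in microglia-like cells. They were not particular to that class. Endothelial or mural-like cells, too few in mouse to be compared, held 348 CPM of Junb and 51.05 CPM of Atf3 in control (44 cells). In the ferret sets such cells held 277 and 346 CPM of JUNB. Control microglia-like cells held 514 CPM of Junb, 26.3 times the RG-like level of 19.5 CPM, and ferret microglia-like cells held 487 and 822 CPM. Atf3 stood at 170 CPM in control and 216 CPM in Smo cKO microglia-like cells and at 4.09 and 4.69 CPM in RG-like cells, with 7 UMIs in all control PyN-IPC-like cells and 1 in all control PyN-like cells. RG-like cells of cluster 15, described below, held 96.9 and 88.4 CPM of Atf3. These were 22 of 86 and 25 of 83 RG-like UMIs, from 60 control and 131 Smo cKO cells. Ferret microglia-like cells gave 0 ATF3 UMIs in set 1, where 3 counts would be 12.4 CPM, and 1 UMI in set 2. Ferret FOS, IER2 and JUN were, in contrast, at 1549, 1115 and 615 CPM in the microglia-like cells of set 1.

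Among control cells of the pyramidal lineage, Egr1 and Ier2 were highest in PyN-IPC-like cells. Egr1 rose from 134 CPM in control RG-like cells to 231 CPM in PyN-IPC-like cells and stood at 99.2 CPM in PyN-like cells. Ier2 had 88.0, 138 and 95.2 CPM in the same order. Egr1 kept this order in the Smo cKO library, with 69.4, 118 and 44.1 CPM, and its RG-like level was 0.581 and 0.591 times the PyN-IPC-like level in control and Smo cKO. For Ier2 the PyN-IPC-like and PyN-like intervals overlapped in Smo cKO, at 77.6 and 71.1 CPM. The Egr1 peak was not seen in ferret, where RG-like cells held 67.1 and 113 CPM of EGR1 and PyN-IPC-like cells 21.4 and 34.8 CPM. Outside the pyramidal lineage, microglia-like cells stood higher than PyN-IPC-like cells for both genes in both mouse libraries.

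Dusp1 and Nr4a1 were highest in microglia-like cells too. Dusp1 stood between 28.8 CPM (RG-like) and 46.2 CPM (inhibitory lineage-like) in the other 4 control classes, against 140 CPM in microglia-like cells. Nr4a1 gave 41.8 CPM in control microglia-like, 9.08 in RG-like, 3.22 in PyN-like and 1.80 in PyN-IPC-like cells, and 0 UMIs in the 82 control cells of the inhibitory lineage-like class. Summed over the 10 genes, the control order was microglia-like at 2238 CPM, RG-like at 1305, PyN-IPC-like at 892, PyN-like at 790 and inhibitory lineage-like at 607 CPM. In Smo cKO the PyN-like and PyN-IPC-like classes traded places, at 890 and 785 CPM. Of the 10 pairs of classes, 9 stood in the control order in Smo cKO and in ferret set 1, and 10 in ferret set 2.

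**Figure D1:**
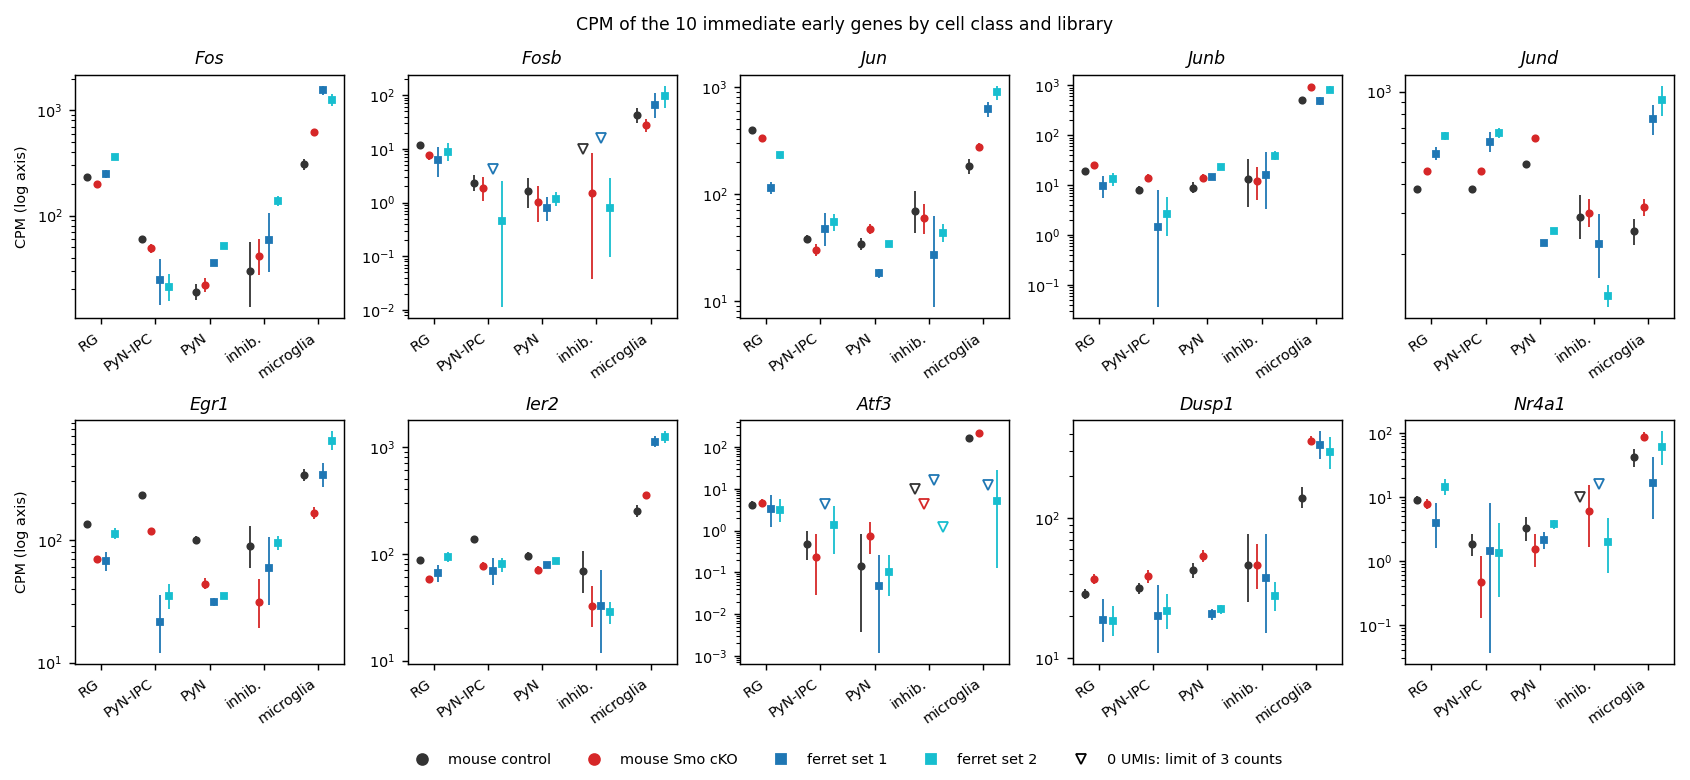
CPM (log axis) of each gene in 5 cell classes of the control and Smo cKO mouse libraries and the 2 ferret sets. Points are summed UMIs over the total of the class, bars are 95% Poisson intervals of counting error, and open triangles mark classes with 0 UMIs at the level of 3 counts. Junb stands at 514 CPM in control microglia-like cells and at 19.5 CPM in RG-like cells.

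Between the 2 mouse libraries, Egr1 was the gene with the most uniform difference: it was lower in Smo cKO in all 5 classes. These include classes in which a loss of Smo could not be seen. Smo gave 0 UMIs in both libraries in inhibitory lineage-like cells, and 0 in control and 5 in Smo cKO microglia-like cells. Genotype and library cannot be told apart here. In RG-like cells Egr1 stood at 134 CPM in control and 69.4 CPM in Smo cKO, a ratio of 0.518 (interval 0.484 to 0.554). In PyN-IPC-like cells it stood at 231 and 118 CPM, a ratio of 0.509 (0.474 to 0.547). PyN-like cells gave 99.2 and 44.1 CPM, a ratio of 0.444 (0.389 to 0.506), and microglia-like cells gave 338 and 167 CPM, a ratio of 0.494 (0.421 to 0.580). The inhibitory lineage-like class gave 89.1 and 31.2 CPM from 27 and 21 UMIs. That class was the exception in direction across the alternative settings. Its Egr1 log2 ratio of -1.51 turned to 0.20 when 4 markers were required and to 0.49 when ratios were taken within clusters. The microglia-like ratio was not uniform within its class either. Its 2 clusters, described below, had Egr1 ratios of 0.486 and 2.31 (1.161 to 5.225). Thinned to 2500 UMIs a cell, 20.8% of control and 10.2% of Smo cKO RG-like cells would show an Egr1 UMI, and 32.5% and 15.3% of PyN-IPC-like cells. Without thinning, the shares were 33.3% and 20.7% in RG-like and 42.9% and 22.2% in PyN-IPC-like cells.

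Ier2 was lower in Smo cKO throughout the neural classes and higher in microglia-like cells. Its ratio was 0.659 (0.610 to 0.712) in RG-like cells at 88.0 and 58.0 CPM, 0.563 (0.515 to 0.615) in PyN-IPC-like cells at 138 and 77.6 CPM, and 0.747 (0.666 to 0.837) in PyN-like cells at 95.2 and 71.1 CPM. In microglia-like cells Ier2 stood at 253 CPM in control and 352 CPM in Smo cKO, a ratio of 1.39 (1.20 to 1.62).

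Fos and Jun moved little in RG-like cells taken as a whole. Fos stood at 235 and 201 CPM (ratio 0.859, 0.822 to 0.897) and Jun at 393 and 331 CPM (0.843, 0.815 to 0.871). In PyN-IPC-like cells the ratios were 0.817 and 0.797. In PyN-like cells Jun stood at 34.0 and 46.7 CPM, a ratio of 1.38 (1.16 to 1.63), and Fos at 18.9 and 22.0 CPM, a ratio whose interval of 0.920 to 1.47 includes 1. Fosb was lower in RG-like cells, at 11.8 and 7.52 CPM (0.636, 0.511 to 0.788). Its ratios of 0.790 in PyN-IPC-like and 0.630 in PyN-like cells had intervals that include 1.

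Junb, Jund and Dusp1 stood on the other side. Junb was at 7.98 and 14.0 CPM in PyN-IPC-like cells (ratio 1.75, 1.35 to 2.28). In RG-like cells it was at 19.5 and 25.4 CPM (1.30, 1.14 to 1.49). In PyN-like cells it was at 8.93 and 14.0 CPM (1.56, 1.13 to 2.17), but a single Smo cKO cell held 24 of the 110 UMIs. Pooled within clusters, the PyN-like ratio was 1.215, and both clusters with enough UMIs had intervals that include 1. Microglial RNA was gauged in the same way as RG RNA: if all UMIs of the 8 microglia markers in Smo cKO PyN-like cells were leaked RNA, they would bring 1.23 CPM of Junb of the 14.0 CPM measured. Jund had ratios of 1.19, 1.20, 1.31, 1.04 and 1.27 in RG-like, PyN-IPC-like, PyN-like, inhibitory lineage-like and microglia-like cells, and in the inhibitory lineage-like class its interval of 0.805 to 1.35 includes 1. Dusp1 had ratios of 1.28, 1.22 and 1.27 in RG-like, PyN-IPC-like and PyN-like cells, and the excess over 1 in each lay beyond counting error. Nr4a1 was lower in PyN-IPC-like and PyN-like cells, but from 26 and 4 UMIs and 22 and 12 UMIs, and in Smo cKO PyN-IPC-like cells most of its level could be free RG RNA by the reckoning above. In the inhibitory lineage-like class Ier2 was lower, at 69.3 and 32.7 CPM from 21 and 22 UMIs (0.472, 0.248 to 0.902). Jun, Junb, Dusp1 and Fos had ratios of 0.858, 0.901, 0.997 and 1.40 there with intervals that include 1, and Fosb, Atf3 and Nr4a1 had too few UMIs. Atf3 stood at 4.09 and 4.69 CPM in RG-like cells, with an interval of the ratio from 0.839 to 1.57. Pooled within clusters, its RG-like ratio was 1.04.

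By the rule of size (a ratio of at least 1.5 in either direction, over no fewer than 10 UMIs summed from the 2 libraries), 45 of the 50 pairs of gene and class had enough UMIs, 7 were higher and 13 lower in Smo cKO, and 25 lay between. In RG-like cells 0 members were higher and 3 of 10 lower, beside 10.7% of all genes higher and 8.29% lower. The 3 were Egr1, Ier2 and Fosb. In PyN-IPC-like cells 1 was higher and 3 of 9 lower, beside 10.3% and 7.42% of all genes, and in PyN-like cells 1 was higher and 3 of 9 lower, beside 7.31% and 6.83%. In inhibitory lineage-like cells 0 of 7 were higher and 2 lower, beside 22.8% and 12% of all genes. This class had the fewest cells. In microglia-like cells 5 of 10 were higher and 2 lower, beside 15.6% and 20.7% of all genes. The median log2 ratio of the members was -0.22 in RG-like, -0.33 in PyN-IPC-like, 0.22 in PyN-like, -0.15 in inhibitory lineage-like and 0.54 in microglia-like cells. Over all genes with UMIs in both libraries the medians were -0.0023, 0.073, 0.029, 0.11 and -0.097 in the same order.

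**Figure D2:**
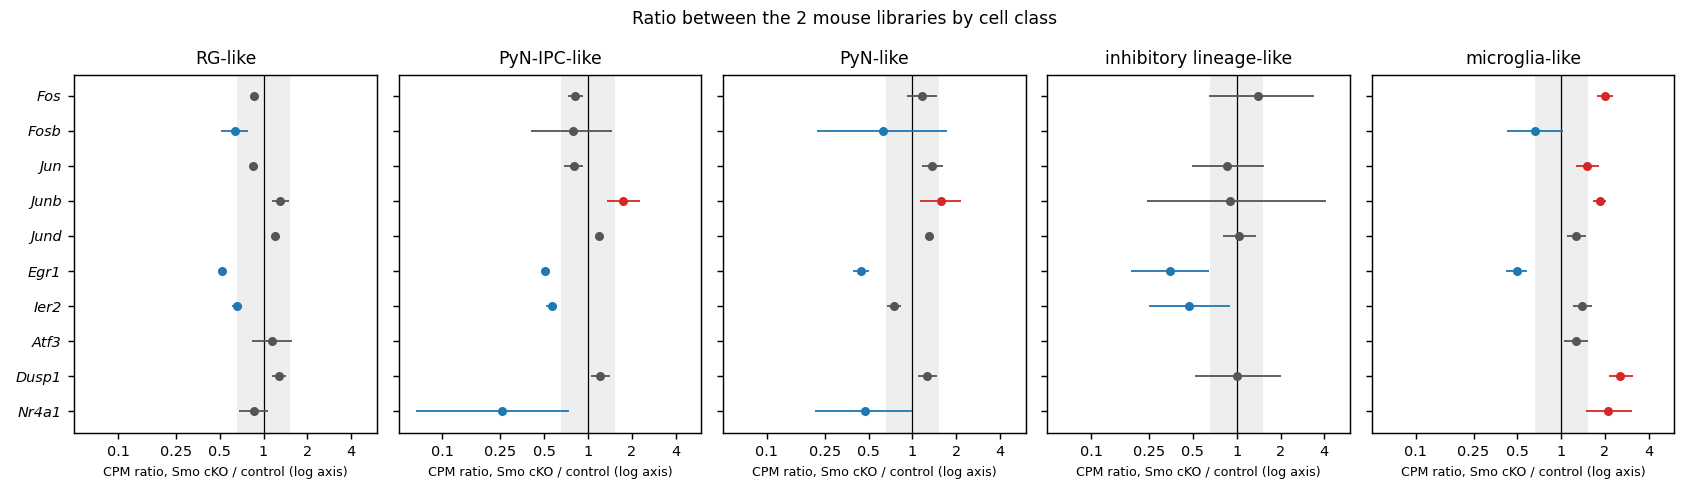
Ratio of CPM, Smo cKO over control (log axis), of each gene in the 5 classes, with 95% counting intervals. The gray band spans a 1.5-fold ratio in either direction, red and blue points are at least 1.5-fold higher or lower in Smo cKO, and pairs with fewer than 10 UMIs are left out. Egr1 lies to the left of the band in all 5 panels, from 0.350 to 0.518.

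The class set by microglia markers showed the largest upward ratios among members with enough UMIs. Dusp1 stood at 140 and 357 CPM (ratio 2.55, 2.12 to 3.10), Nr4a1 at 41.8 and 87.5 CPM (2.09, 1.47 to 3.04), Fos at 308 and 616 CPM (2.00, 1.76 to 2.28), Junb at 514 and 943 CPM (1.84, 1.66 to 2.03) and Jun at 181 and 273 CPM (1.51, 1.27 to 1.81). Egr1, given above, and Fosb, at 41.8 and 27.5 CPM from 40 and 49 UMIs (0.658, 0.424 to 1.03), were the members past the fold in the lower direction. This class was not made up alike in the 2 libraries. Clustering the cells without the members split it into a cluster led by Spp1, C1qa and Ly86 (cluster 19), which held 75% of control and 41.8% of Smo cKO microglia-like cells, and a cluster led by 1600014C10Rik, Ifi27l2a, Plac8, Cxcl2 and Cd52 (cluster 20), which held 25% and 57.7%. Among the leading genes of cluster 20, Ctss alone was one of the microglia markers, and Plac8, Lst1 and Lgals3 are known from monocytes and macrophages, whereas C1qa, C1qb, C1qc and Cx3cr1 led cluster 19. The name microglia-like therefore rests on the marker rule alone for cluster 20. Dividing cells, those with at least 3 of 8 cycling markers, were 44.6% of the class in control and 14.1% in Smo cKO.

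Within cluster 19 none of the 5 had an interval above 1, and Jun and Nr4a1 had ratios of 1.08 (0.865 to 1.34) and 1.28 (0.781 to 2.13). Among its 69 control and 71 Smo cKO cells Fos stood at 220 and 171 CPM (ratio 0.777, 0.628 to 0.960), Junb at 428 and 427 CPM (0.999, 0.867 to 1.15), Dusp1 at 79.7 and 67.3 CPM (0.844, 0.595 to 1.20) and Ier2 at 261 and 195 CPM (0.747, 0.614 to 0.908). Egr1 stood at 398 and 194 CPM there, a ratio of 0.486 (0.407 to 0.580). Within cluster 20, on 23 control and 98 Smo cKO cells, all 5 had intervals above 1, with ratios of 2.11 for Jun, 1.94 for Dusp1 and 2.03 for Nr4a1. Fos stood at 726 and 1335 CPM (1.84, 1.52 to 2.24) and Junb at 923 and 1778 CPM (1.93, 1.63 to 2.29). Ier2 stood at 216 and 606 CPM (2.81, 1.99 to 4.06). Egr1 stood at 54.0 and 124.7 CPM from 9 and 85 UMIs, a ratio of 2.31 (1.161 to 5.225), opposite in direction to cluster 19. Atf3 was near 1 in both clusters, with ratios of 1.04 and 1.08. Leaving out dividing cells, the whole-class ratios were 1.74 for Fos, 1.73 for Junb, 1.81 for Dusp1, 1.52 for Jun and 0.637 for Egr1, on 51 control and 146 Smo cKO cells. Nr4a1 fell short of the fold there, at 1.34 (0.874 to 2.11), Ier2 was at 1.60 and Atf3 at 0.888 (0.704 to 1.13).

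RG-like cells, too, were spread over clusters that held different shares of the 2 libraries. Cluster 5, led by Fgfbp3, Tst and Sparcl1, held 24.0% of control and 1.95% of Smo cKO RG-like cells, and cluster 6, led by Prm1, Id3, Aldoc and Tnc, held 0.571% and 36.1%. Clusters 7 and 11, in which Olig1 and Olig2 were among the leading genes, held 9.88% and 5.77% of control and 4.43% and 2.81% of Smo cKO RG-like cells. In the 11 clusters with at least 20 RG-like cells of each library, the Fos ratio was below 1 in 11, and in 9 its interval lay below 1. Pooled over these clusters (Mantel-Haenszel weights from their UMI totals), the Fos ratio was 0.623, against 0.859 over the class as a whole. Jun behaved alike, with 10 of 11 clusters below 1 and a pooled ratio of 0.714. Pooled ratios of RG-like cells give little weight to clusters 5 and 6, each of which held few cells of 1 library. Cluster 5 held 840 control and 43 Smo cKO RG-like cells, and cluster 6 held 20 and 797. Fos stood at 358 CPM in the control cells of cluster 5 and at 318 CPM in the Smo cKO cells of cluster 6. In cluster 4, which was led by 1500015O10Rik, Igfbp5 and Mt1 and held 544 and 417 cells, Fos stood at 377 and 201 CPM and Jun at 542 and 272 CPM.

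Egr1 was below 1 in all 11 RG-like clusters, from 0.200 to 0.898, with a pooled ratio of 0.630, and in 7 of 7 PyN-IPC-like clusters, with a pooled ratio of 0.508. Ier2 was below 1 in 10 of 11 and in 7 of 7. The exception was cluster 15, led by the globin genes Hba-a1 and Hbb-bs with Cxcl10, Chac1 and Cdkn1a, in which Ier2 stood at 101 and 173 CPM in RG-like cells. Junb, with 5 RG-like clusters below and 6 above 1 and a range of 0.237 to 3.52, and Dusp1, with 3 below and 8 above, had no single direction. The smaller clusters rest on few UMIs, and clusters were built without integration, so a cluster border can itself follow the library.

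**Figure D3:**
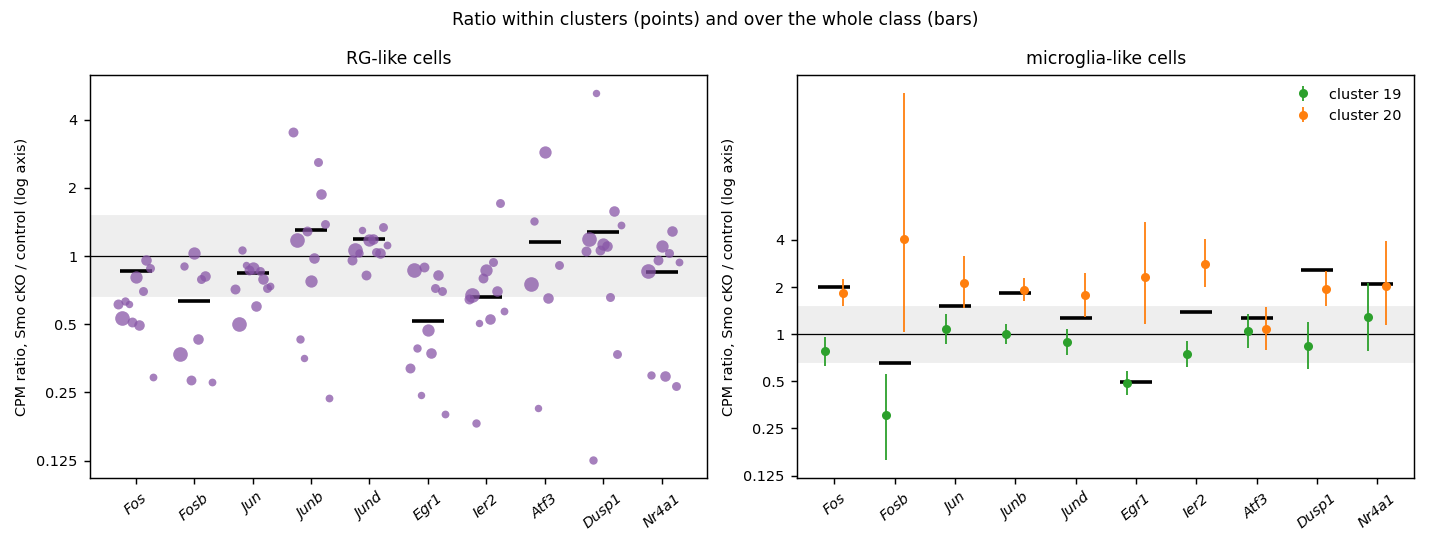
Ratio of CPM, Smo cKO over control (log axis), within clusters of the RG-like (left) and microglia-like (right) cells. Left, each point is 1 of up to 11 clusters with at least 20 cells of each library, larger where the smaller of the 2 cell numbers is larger; right, points carry 95% counting intervals; black bars give the ratio over the whole class. Fos points lie below 1 in all 11 RG-like clusters. For Fos, Fosb, Egr1 and Ier2, the intervals of cluster 19 and cluster 20 of the microglia-like cells lie on opposite sides of 1.

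Summed over all cells of a library, the ratios of several members depended on the microglia-like cells. In such sums the number of cells of a class and the RNA per cell cannot be told apart. Microglia-like cells were 0.876% of control and 2.36% of Smo cKO cells and held 1.85% and 4.24% of all UMIs. They held 37.3% and 64.9% of the Junb UMIs, 57.4% and 76.2% of the Atf3 UMIs, 13.2% and 46.4% of the Nr4a1 UMIs and 4.37% and 19.7% of the Fos UMIs. Junb was 2.42 times as high in Smo cKO over all cells and 1.39 times (1.26 to 1.53) without microglia-like cells. Atf3 went from 2.18 to 1.25 (0.962 to 1.62), Nr4a1 from 1.36 to 0.862 (0.709 to 1.05), and Fos from 1.02 to 0.874 (0.841 to 0.908). Egr1 was at 0.493 with and 0.480 without them. Sorting can set the share of microglia-like cells, and the 2 libraries differ in it by counting intervals that do not overlap, 0.707% to 1.07% and 2.02% to 2.74%.

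**Figure D4:**
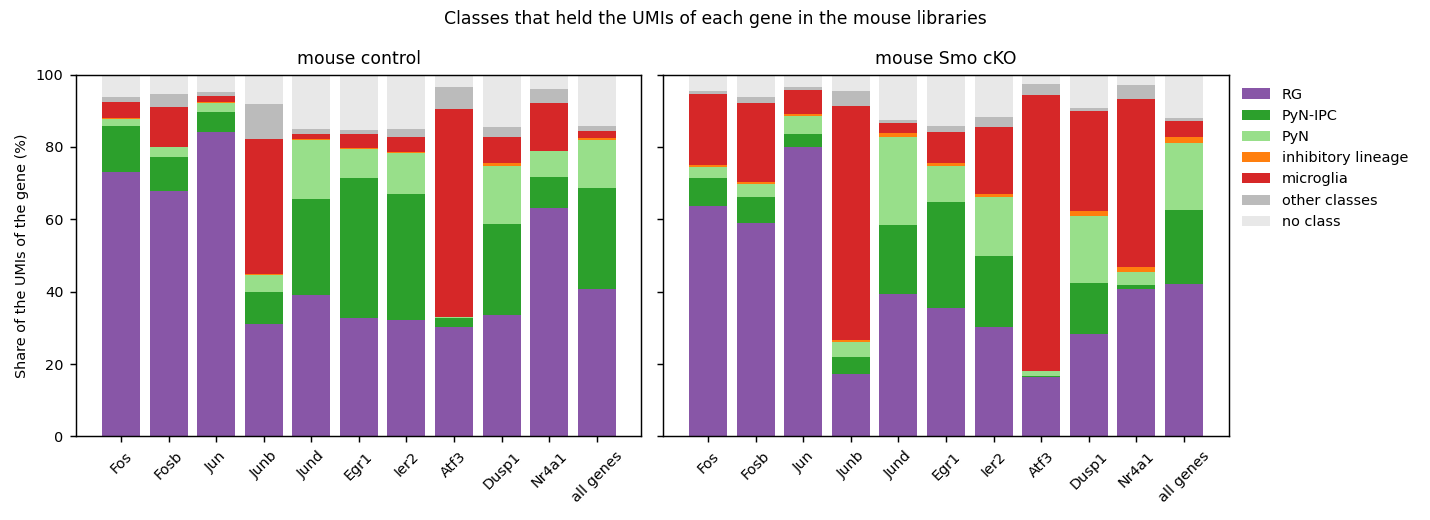
Share (%) of the UMIs of each gene, and of all genes, held by each cell class in the control (left) and Smo cKO (right) mouse libraries. Bars are stacked to 100%. The microglia-like share of Junb is 37.3% in control and 64.9% in Smo cKO, whereas that of all genes is 1.85% and 4.24%.

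Dividing RG-like cells held less of several members than the other RG-like cells of the same library. Among control RG-like cells, 1317 were dividing and 2186 were not. Fos stood at 164 CPM in dividing and 295 CPM in other cells, a ratio of 0.556 (0.524 to 0.590), and in Smo cKO the ratio was 0.492 (0.453 to 0.535). Jund gave 0.696 and 0.605 and Junb 0.688 and 0.487 in the 2 libraries. Jun was close to even at 0.847 and 0.902, and Ier2 had intervals that include 1 in both, at 0.968 and 0.999. Dividing cells made up 37.6% of control and 25.6% of Smo cKO RG-like cells. In PyN-IPC-like cells of the control, Jun ran the other way, at 1.46 times (1.18 to 1.78) in dividing cells.

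Thinned to 2500 UMIs in a single random draw, control RG-like cells held a mean of 1.98 of the 10 genes and Smo cKO RG-like cells 1.79. In the same order, 11.1% and 8.36% held 4 or more. Microglia-like cells held 3.22 and 4.22, with 45.1% and 60.1% at 4 or more. Among control RG-like cells with a Fos UMI, 64.6% had a Jun UMI, against 51.1% of those without, and 26.3% against 17.8% had an Egr1 UMI. In PyN-IPC-like cells the Egr1 share was 53% among cells with a Fos UMI and 29.9% among the others in control, and 48.5% and 12.7% in Smo cKO. Ferret RG-like cells of set 2 showed Jun in 52.8% and 33.1% of cells with and without a Fos UMI.

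Other early response genes did not share the Egr1 difference as a group. Of 28 listed genes, 26 were in the table and 24 had enough UMIs in RG-like cells: 5 were higher, 1 was lower and 18 were within 1.5-fold, with a median log2 ratio of 0.18, beside the percentages of all genes given above for this class. The highest ratios among those with at least 50 UMIs were those of Gadd45b, a stress-response gene, at 2.52 and 6.11 CPM (ratio 2.43), Klf2 (1.72) and Fosl2 (1.64). The lowest was that of Klf6, a Krüppel-like factor, at 46.2 and 27.3 CPM (0.591, 0.529 to 0.660), followed by Spry4 (0.859) and Cyr61 (0.878). In microglia-like cells 11 of 19 were higher and 2 lower, beside 15.6% and 20.7% of all genes, and the summed level of the list was 1512 CPM in control and 2773 CPM in Smo cKO.

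Among 13 genes upstream of the members, such as serum response factor, its Elk partners and the MAP kinases, 1 was higher and 0 lower in RG-like cells, beside 10.7% and 8.29% of all genes. That 1 was Elk3, at 41.0 and 72.4 CPM (ratio 1.77, 1.62 to 1.93), and Crem (1.18) and Map2k1 (1.04) came next. The lowest were Creb1 at 49.5 and 40.8 CPM (0.824, 0.749 to 0.907), Mapk3 (0.903) and Mapk8 (0.906).

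Signs of handling were measured beside these values. Of 12 heat shock genes, 1 was higher and 2 lower in RG-like cells, beside the same shares of all genes and all of them at low counts, and the summed level was 4921 CPM in control and 5055 CPM in Smo cKO. Hspa8 (1.15), Hspa5 (1.14) and Hsp90ab1 (1.07) had the highest and Hsph1 (0.858), Hsp90aa1 (0.884) and Hspd1 (0.932) the lowest ratios among those with at least 50 UMIs. In microglia-like cells 2 of 11 were higher and 1 lower, beside 15.6% and 20.7% of all genes. The summed level there was 5702 and 4952 CPM. The 2 were the inducible Hspa1a, at 2.09 and 39.8 CPM from 2 and 71 UMIs (ratio 19.1, 5.09 to 160), and Hspa1b, at 2.09 and 17.4 CPM from 2 and 31 UMIs (8.32, 2.12 to 71.8), both named after their values were seen. The mitochondrial share was a median of 0.852% and 0.862% in RG-like cells and 1.22% and 0.656% in microglia-like cells, and ribosomal protein genes took 20.7% and 19.6% of RG-like UMIs. Before cells were filtered, 354 Smo cKO cells and 1 control cell had fewer than 750 genes. The part of these in the member ratios was not tested.

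Some genes had levels that ran closely with the members over the 10 combinations of class and mouse library. By Pearson correlation of log2(CPM + 10), the closest to the summed members were Trib1 (0.993), Ninj1 (0.992), Gm2a (0.986), Pced1b (0.984) and Tmem219 (0.984), the closest to Fos were Pgam1 (0.988), Zfp36l2 (0.984), Tmbim6 (0.984), Rexo2 (0.983) and Agtrap (0.981), and the closest to Jund were Spint2 (0.957), Gm26798 (0.949), Galnt18 (0.947), Pcdhb8 (0.947) and Tmem28 (0.944). These were picked as the highest of 13656 genes, the 10 points share 2 libraries, Gm26798, Galnt18 and Pcdhb8 each had fewer than 100 UMIs, and the microglia-like points weigh most for the summed members.

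In the mm10 annotation (GENCODE M21), Fos lies at chr12:85473890-85477273 on the plus strand, Jun at chr4:95049034-95052222 and Junb at chr8:84974484-84978718, both on the minus strand. Junb overlaps Prdx2, Jun overlaps Junos, Jund overlaps Gm11175 and Atf3 overlaps Gm24748, each on the opposite strand, and the Dusp1 model overlaps Ergic1 and Gm8225 on the opposite strand and AC122252.4 and AC122252.1 on its own. The strand setting of the counting is not given in the sources used here, so reads in these overlaps could be assigned to either gene.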

How the data were processed

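Single-cell RNA libraries (10x Chromium) of 2 mouse and 2 ferret samples were analysed. The authors deposited 1 table of raw UMI counts per gene and cell for each species. The submitters' processing notes name Cell Ranger, StringTie, Seurat 3 and mm10; the study's methods name a later Seurat version. The Cell Ranger version, the annotation and the ferret build are not given in the sources used here.

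Cells with 750 to 5000 genes and under 10% mitochondrial UMIs were kept. UMIs were summed per class and library and divided by the total (CPM). Intervals are exact Poisson (levels), conditional binomial (ratios) and Clopper-Pearson (shares). Shares thinned to 2500 UMIs are expectations over cells that reach this depth. The values for members found together in a cell come instead from a single seeded random draw over such cells. Clusters (Leiden, leidenalg 0.10.2, resolution 1) used 2000 variable genes, 30 components and 20 neighbours, without the members and lists. Scripts ran in Python 3.11.15 and were tested on simulated data.

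Members, lists and markers were chosen with earlier results of these data known, and the scoring of classes after seeing the data. The rule for named genes took all 10 members in each class with at least 50 cells in both mouse libraries; of each list, the 3 highest and 3 lowest ratios in RG-like cells among genes with at least 50 UMIs; of genes with a like pattern, the 5 closest. No doublet caller was run.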

Additional observations from a re-analysis of the deposited data

Results flagged for a closer look

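For 4 genes the ratio of CPM, Smo cKO over control, lay below 1 in some classes and above 1 in others, in each case beyond counting error. The difference between classes was not tested, since each genotype was 1 library. Fos had ratios of 0.859 in RG-like and 0.817 in PyN-IPC-like cells and 2.00 in microglia-like cells. Jun had 0.843 and 0.797 in RG-like and PyN-IPC-like cells and 1.38 and 1.51 in PyN-like and microglia-like cells. Ier2 had 0.659, 0.563, 0.747 and 0.472 in RG-like, PyN-IPC-like, PyN-like and inhibitory lineage-like cells and 1.39 in microglia-like cells. Nr4a1 had 0.258 and 0.473 in PyN-IPC-like and PyN-like cells and 2.09 in microglia-like cells. Within the microglia-like cells, Fos and Ier2 were below 1 in cluster 19 (0.777 and 0.747) and above 1 in cluster 20 (1.84 and 2.81). Egr1 and Fosb also changed sides, from 0.486 and 0.303 in cluster 19 to 2.31 and 4.04 in cluster 20. The Fosb ratio in cluster 20 rests on 2 control and 33 Smo cKO UMIs.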

How the results depend on the processing

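No paired analysis was possible because each mouse genotype was 1 library and the ferret barcode sets could not be tied to samples. For the same reason no replicate could be left out. Of the 20 pairs of gene and class past 1.5-fold, 19 kept their direction under all 12 alternatives and 9 also stayed past 1.5-fold. The exception was Egr1 in inhibitory lineage-like cells, whose log2 ratio of -1.51 became 0.20 with at least 4 markers and 0.49 with ratios pooled within clusters. The alternatives that asked for a lead of 2 markers or pooled ratios within clusters were chosen after seeing the data. The cause of the changes below was not tested.

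The median log2 ratio of the members moved in RG-like cells from -0.22 to -0.30 without dividing cells and to -0.41 within clusters, and in microglia-like cells from 0.54 to 0.79 with each cell weighed the same, to 0.80 with thinning and to 0.29 within clusters. Within clusters, 3 pairs in place of 7 were higher in Smo cKO. At a fold of 2, the other early response genes in RG-like cells gave 1 higher and 0 lower in place of 5 and 1.

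The share of RG-like cells with a UMI follows depth. Thinned, the difference (Smo cKO minus control) went from 1.91 to -2.62 points for Fos, from -0.044 to -6.24 for Jun, from 4.12 to 1.10 for Junb, from 7.67 to 5.07 for Jund, from -2.97 to -5.88 for Ier2 and from 7.43 to 1.97 for Dusp1. Counting only cells with at least 2 UMIs, it was 2.60 for Jun, 1.73 for Junb, 16.2 for Jund, -7.37 for Egr1 (from -12.6) and 3.39 for Dusp1. Fosb, Atf3 and Nr4a1 moved within their counting intervals.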

Other observations

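Endothelial or mural-like cells, too few in mouse to be compared between genotypes (44 control and 24 Smo cKO cells), held 348 and 442 CPM of Junb and 258 and 347 CPM of Ier2. In ferret, with 92 and 79 such cells, JUNB stood at 277 and 346 CPM and IER2 at 249 and 314 CPM. Glial progenitor-like cells of the mouse (46 control and 14 Smo cKO cells) held 242 and 212 CPM of Egr1, from 75 and 36 UMIs. Cajal-Retzius-like cells gave 0 Fos and 0 Egr1 UMIs in 19 control cells, where 3 counts would be 18.5 CPM. Ferret inhibitory lineage-like cells of set 2 (857 cells) held 138 CPM of FOS and 93.9 CPM of EGR1, and their PyN-like neighbors of the same set 51.7 and 34.7 CPM.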
